A study of Bos taurus with 42 samples.

Results

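Internal fragments of transfer RNAs, listed as miscellaneous tRNA fragments, are sequences assigned to a tRNA locus but not to the start or the end of the mature tRNA or to a product of cleavage at the anticodon. They were taken as every sequence whose first annotation was of that type and carried no Ensembl transcript identifier. The rule gave 209 of the 12345 listed sequences, which are 209 of the 907 tRNA-derived ones. Another 22 sequences of the type carried an Ensembl identifier and were left out.

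Transfer RNAs carry amino acids to the ribosome, and each reads its codons through its anticodon, which is part of its name here (CysGCA is a cysteine tRNA with the anticodon GCA). Cells cut tRNAs and their precursors into shorter RNAs, and the fragments at the start and the end of the molecule are the best studied, with reported roles in translation control, stress and the silencing of transposons. Internal fragments keep neither end of the tRNA and are less well characterised. Mammalian genomes also hold many tRNA-like copies, among them short interspersed repeats that descend from tRNA genes, and a predicted tRNA locus need not be a gene that is used in translation.

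Small RNA of less than 200 nt from cattle was read on an Ion Proton sequencer, giving 42 libraries in 12 groups. Fibroblasts (3 libraries) were primary ear cultures from a Brahma Spanish bull cross, and oocytes (3 libraries) were at metaphase II after maturation in culture with follicle stimulating and luteinizing hormone. Cloned embryos (NT, nuclear transfer of serum-starved ear fibroblasts by electrofusion into oocytes whose metaphase plate had been removed after demecolcine, then activated) gave 4 libraries at the 2-cell stage on day 2, 4 at the 8-cell stage on day 3, 3 of morulae on day 6, 4 of blastocysts on day 8 and 3 of cells grown out of blastocysts, called derived cells. Fertilised embryos (IVF, with semen of a Holstein bull) gave 4, 3, 4, 3 and 4 libraries at the same stages. The NT and IVF embryos therefore differ at least in sire and breed as well as in how they were made. The nuclei of NT embryos came from a bull, so sex may differ too, and it was not examined. Both kinds were cultured with bovine cumulus cells. The labels speak of 4 pools of 20 embryos in one place and of 3 pools in another, and nothing says that pools came from separate collections of oocytes, so p-values measure the spread between these libraries. In pooled samples fewer fragments per cell and fewer cells that hold them cannot be told apart.

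Listed reads per library ranged from 25119 to 3081186, with a median of 608572, and tRNA-derived reads from 13998 to 1636042. The table lists only sequences found in NT 2-cell replicate 4, so all 209 members were found there by construction and fragments absent from that library are not described. IVF morula replicate 1 held 0.143% piRNA and 64.1% miRNA reads, and IVF morula replicate 3 had the fewest reads, of which 65.5% were tRNA-derived. Elsewhere piRNAs made up 13.8% to 91.7% of listed reads in oocytes and embryos and 0.0653% to 0.895% in fibroblasts and derived cells, which was the marker of germ cell RNA used here to check the labels. These 2 libraries stood apart from the other oocyte and embryo libraries, and the values without them are given beside the sums, ratios and counts that they move. Levels below are normalised reads, which are reads divided by the size factor of the library, and floors set from reads cover counting error only, since reads are not independent molecules. Fold bounds set from these floors also rest on the size factors.

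The 209 members named 150 locus numbers, 22 amino acid labels and 39 anticodons. Glycine led with 54 members, of which 27 had the anticodon TCC, 18 had CCC and 9 had GCC. Cysteine followed with 51 members, 49 of them with GCA and 2 with ACA, and glutamate (21), lysine (12), arginine (9) and tyrosine (7) came next. Each sequence carries at most 3 printed annotations, and 131 members filled all 3, so many fragments match several loci. In 25 members the annotations named more than 1 amino acid, and 8 members also listed another kind of RNA, such as a 5′ fragment or a protein-coding transcript. Members that share a first locus are told apart here by a letter, in order of mean level. The table gives names and no sequences, so none can be shown.

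Presence differed widely among members. The median member was found in 17 of the 42 libraries, and 12 were found in all of them. Of all members, 54.1% were found in no fibroblast or derived cell library, against 48.3% of the other tRNA-derived sequences, 98.4% of the piRNA sequences, 8.40% of the miRNA sequences and 86.1% of all 12345 listed sequences. Among cysteine members 46 of 51 (90.2%) and among glycine members 43 of 54 (79.6%) were found in none of these 10 libraries, and among the other amino acids 24 of 104 (23.1%). The shares of cysteine and glycine were thus near that of all listed sequences, most of which are piRNAs, and the share of the other amino acids was far below it. The 10 libraries held 106292 to 1636042 tRNA-derived reads each, and those of oocytes and embryos 13998 to 455181. Whether depth bears on the absence of rare members was not tested. Within glycine, 26 of 27 TCC members, 12 of 18 CCC members and 5 of 9 GCC members were found in no fibroblast or derived cell library. Found in all 3 oocyte libraries and in none of these 10 were 18 cysteine members, 11 glycine members and 4 others. The same count over all listed sequences was not made, so these numbers cannot be read as particular to cysteine or glycine.

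**Figure D1:**
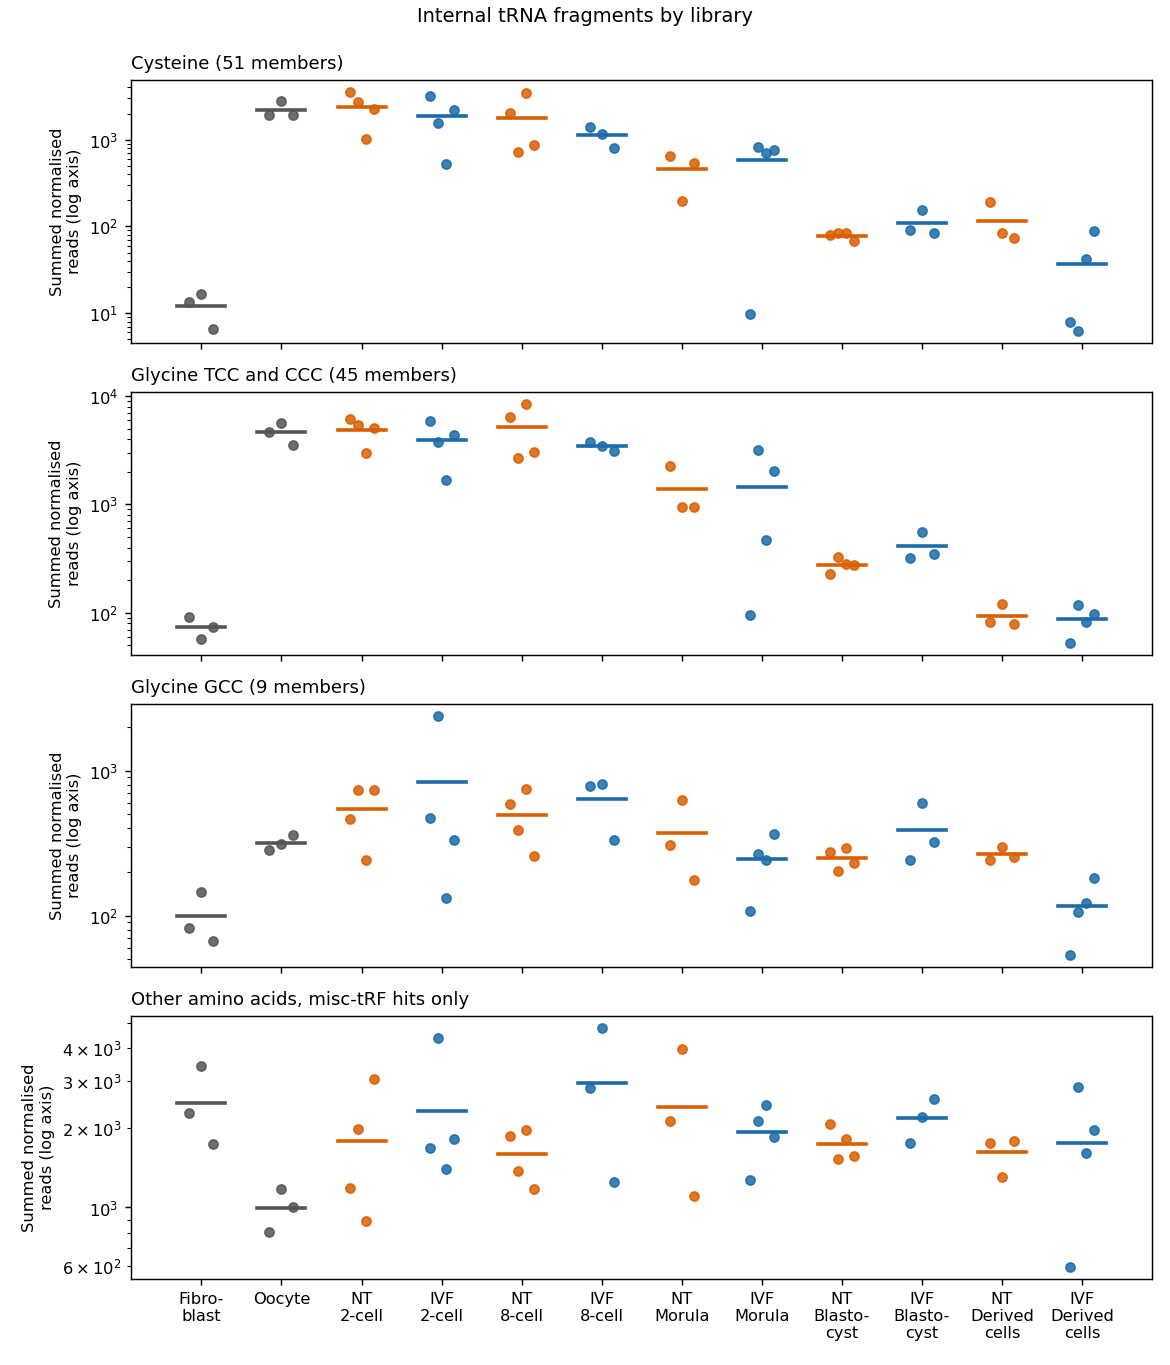
Summed normalised reads of the internal fragments in each library (log axis), by group, for the 51 cysteine members, the 45 glycine members with TCC or CCC, the 9 glycine members with GCC, and the members of other amino acids that list no other kind of RNA; points are libraries and bars are group means. Cysteine and glycine TCC and CCC were low in fibroblasts and high in oocytes and were lower at the later embryo stages, with IVF morula replicate 1 the low point in its group.

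The summed level of the cysteine members was high in oocytes and early embryos and low at the blastocyst stage. In fibroblasts their summed level was 12.2 ± 5.11 normalised reads (SD, n = 3), against 2227 ± 499 in oocytes (n = 3). The 2-cell libraries had 2377 ± 1068 in NT and 1877 ± 1138 in IVF (n = 4 each), and the 8-cell libraries 1755 ± 1243 in NT (n = 4) and 1124 ± 304 in IVF (n = 3). It then stood at 459 ± 232 in NT morulae (n = 3) and 578 ± 382 in IVF morulae (n = 4). Blastocysts held 78.6 ± 7.55 in NT (n = 4) and 110 ± 39.7 in IVF (n = 3). The blastocyst libraries lay between 67.7 and 156 and the oocyte libraries between 1938 and 2803, so the groups did not overlap. Derived cells held 116 ± 65.0 in NT (n = 3) and 36.6 ± 39.1 in IVF (n = 4), and there nearly all came from 1 member, trna4850-CysGCA, described below. IVF morula replicate 1 held 9.71 and the other 3 IVF morula libraries 711 to 823, of which the 711 of replicate 3 came from 1 member, trna2150-CysGCA-a.

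The abundant members behind this sum shared its high and low ends. The member trna5380-CysGCA-a stood at 272, 387 and 218 normalised reads in the oocyte libraries. It stood at 465, 481, 79.1 and 238 in NT and at 386, 147, 51.2 and 224 in IVF 2-cell embryos, and at 167, 64.1, 254 and 77.2 in NT and 47.3, 83.1 and 54.4 in IVF 8-cell embryos. In NT blastocysts it was found in 1 library only, at 7.58, and in IVF blastocysts at 12.9 and 3.06 in 2 of the 3 libraries. No fibroblast or derived cell library held a read of it. The member trna5308-CysGCA-a stood at 272, 314 and 218 in oocytes, at 2.50 and 1.98 in 2 of the 4 NT blastocyst libraries and at 5.58, 3.52 and 1.75 in the IVF blastocyst libraries. The most abundant cysteine member by mean over groups, trna1963-CysGCA-a, stood at 196, 260 and 204 in oocytes and at 1.18 to 6.92 in NT blastocysts. The more abundant of the ACA members, trna4197-CysACA-a, had 50.3, 29.4 and 91.4 in oocytes and was found in no fibroblast or derived cell library.

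The summed reads of the glycine TCC and CCC members were likewise high in oocytes and early embryos and low in blastocysts. In oocytes and in 2-cell and 8-cell embryos most of them came from 1 sequence, described next. Their sum was 74.6 ± 17.3 normalised reads in fibroblasts (n = 3), against 4642 ± 1046 in oocytes (n = 3). It was 4894 ± 1326 in NT and 3924 ± 1729 in IVF 2-cell embryos, 5133 ± 2793 in NT and 3434 ± 308 in IVF 8-cell embryos, 1387 ± 762 in NT and 1452 ± 1439 in IVF morulae, and 278 ± 40.4 in NT and 409 ± 127 in IVF blastocysts. IVF morula replicates 1 and 3 held 95.8 and 470 of it, and without them the IVF morula libraries stood at 3201 and 2041, so the IVF morula level rests on whether these 2 are counted. Derived cells held 93.9 ± 23.8 in NT and 87.6 ± 27.7 in IVF. The sum of the 9 glycine GCC members, which came mainly from trna9190-GlyGCC and trna1415-GlyGCC-a in fibroblasts and blastocysts, was 98.8 ± 42.1 in fibroblasts, against 319 ± 40.4 in oocytes, and 251 ± 40.1 in NT and 387 ± 187 in IVF blastocysts. Single GCC members differed from this sum: trna8928-GlyGCC-a, chosen after its values were seen, had no read in fibroblasts and 75.5, 93.1 and 63.3 normalised reads in oocytes.

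Before the morula stage a single sequence made up most of the glycine reads, except in IVF 2-cell replicate 2, where it was 44.6%. The member trna6488-GlyTCC-a, which lists 1 locus and no other annotation, was 72.6% of the glycine reads in oocytes, 70.9% in NT and 65.3% in IVF 2-cell embryos, and 75.9% in NT and 69.2% in IVF 8-cell embryos (means over libraries). Its level was 3669, 4621 and 2619 normalised reads in the oocyte libraries. It was 4907, 4169, 2455 and 3794 in NT and 4541, 2762, 1341 and 3342 in IVF 2-cell embryos, and 5452, 2179, 6965 and 2561 in NT and 3054, 2723 and 2632 in IVF 8-cell embryos. These groups overlapped. Morulae held 1757, 498 and 670 in NT, and 2503 and 1464 in IVF replicates 2 and 4, while IVF replicates 1 and 3 held no read of it. Blastocysts held 34.2, 148, 111 and 99.5 in NT and 135, 252 and 108 in IVF, all below every oocyte, 2-cell and 8-cell library. No read of it was found in the 3 fibroblast, 3 NT derived cell or 4 IVF derived cell libraries.

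Next among glycine members of this kind were trna1372-GlyCCC-a and trna3273-GlyTCC-a. The member trna1372-GlyCCC-a, whose annotations name glycine and arginine loci, had 242, 333 and 260 normalised reads in oocytes, 1.77 to 6.26 in NT blastocysts and 1.31 to 9.38 in IVF blastocysts. The member trna3273-GlyTCC-a had 378, 235 and 148 in oocytes and at most 1.98 in NT and 7.03 in IVF blastocysts. Neither was found in any fibroblast or derived cell library.

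A few glycine and cysteine members went against their class, and those named here beyond the ones found in all libraries were chosen after their values were seen. The members trna9190-GlyGCC, trna848-GlyCCC-a and trna1415-GlyGCC-a were found in all 42 libraries. The member trna848-GlyCCC-b was found in every fibroblast library, at 39.0, 10.0 and 51.5 normalised reads, and in no oocyte library. The member trna868-GlyTCC, the only TCC member seen in fibroblasts or derived cells, was likewise in none of the oocyte libraries and in all 10 fibroblast and derived cell libraries, at 2.17 to 2.91 in fibroblasts. The cysteine member trna4850-CysGCA had 186, 80.5 and 68.1 normalised reads in NT derived cells and 6.85, 3.07, 38.0 and 86.5 in IVF derived cells, against 59.2, 23.1, 33.9 and 34.7 in NT blastocysts and 39.0, 9.38 and 20.1 in IVF blastocysts. It was found in 1 of 3 oocyte libraries, at 10.55. The member trna4851-CysGCA was found in all 10 fibroblast and derived cell libraries, at 1.06 to 16.0, and in no oocyte library.

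**Figure D2:**
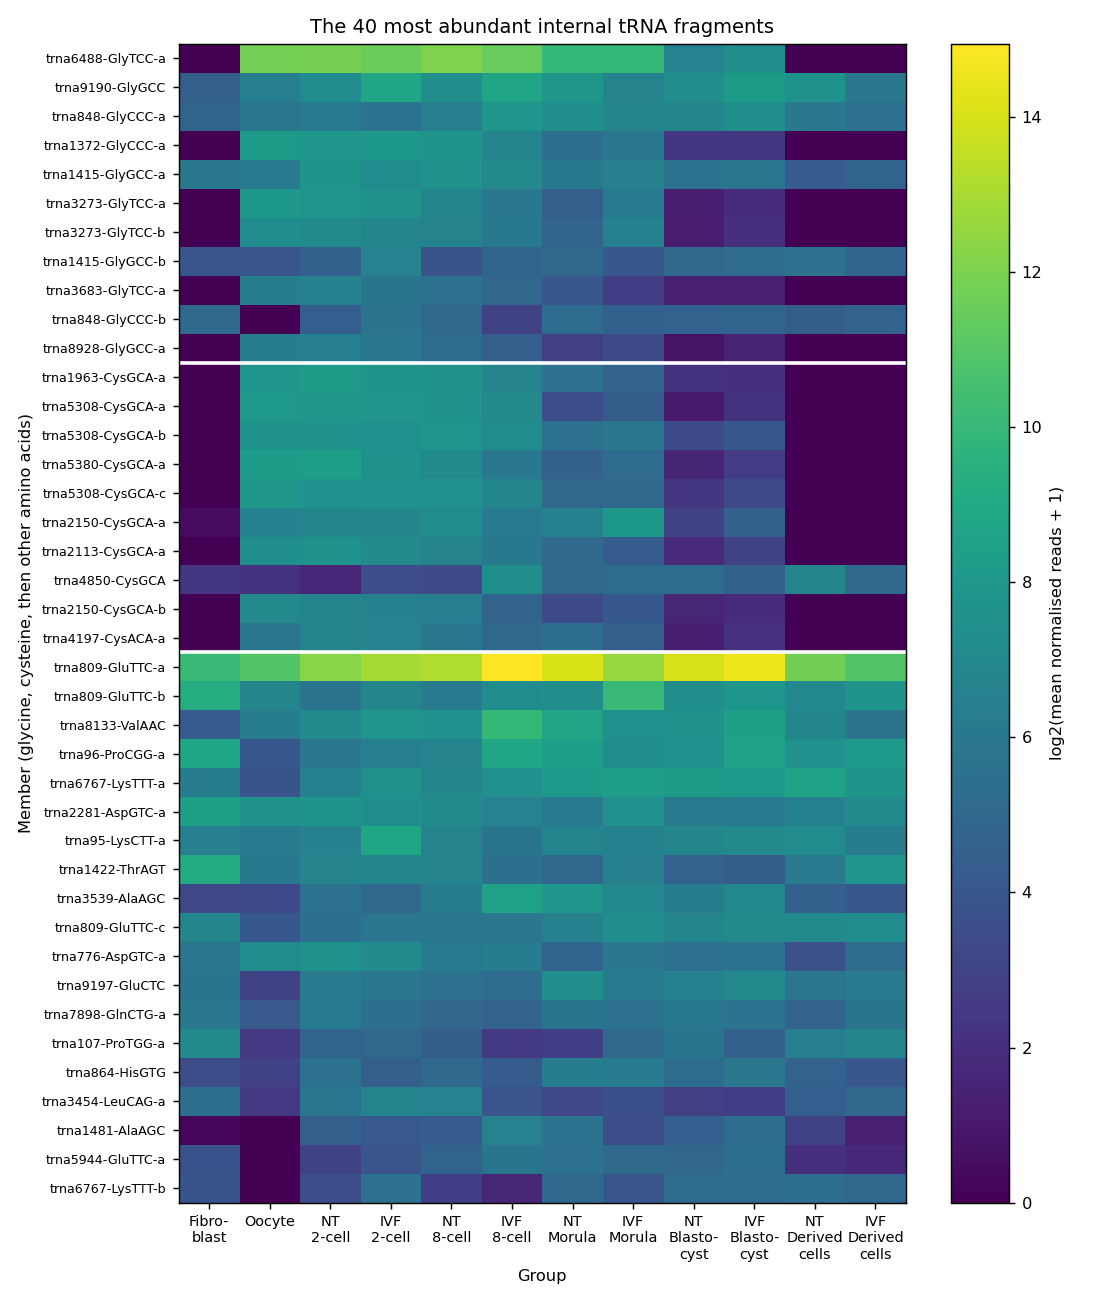
Mean level of the 40 most abundant internal fragments in each group, as log2 of the mean normalised reads plus 1, with glycine members at the top, cysteine members in the middle and other amino acids at the bottom (white lines between them). Most glycine and cysteine rows end at 0 in fibroblasts and derived cells, with trna9190-GlyGCC, trna848-GlyCCC-a, trna1415-GlyGCC-a and trna4850-CysGCA among the exceptions; most other rows stay above 0 in all groups.

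The reads of the other amino acids were dominated by trna809-GluTTC-a, the most abundant member. Its further annotations are long 5′ products of glutamate tRNAs, cut at the anticodon, from which it cannot be told apart. It stood at 2616, 199 and 588 normalised reads in fibroblasts and at 503, 1421 and 4078 in oocytes, which overlapped. It stood at 5194, 701, 13720 and 536 in NT and 4849, 16907, 7226 and 1942 in IVF 2-cell embryos, and at 21407, 16438, 20244 and 10438 in NT and 12294, 21838 and 39374 in IVF blastocysts. The blastocyst libraries were all above the oocyte libraries. It made up 86.6% of all member reads in NT blastocysts and 86.5% in IVF blastocysts, against 18.4% in oocytes (means over libraries). Internal fragments as a whole had a median share of tRNA-derived reads of 2.43% in fibroblasts (1.76% to 2.89%), against 11.9% in oocytes (lowest 10.0%, highest 14.1%). Blastocysts had 18.3% in NT (15.9% to 22.1%) and 17.0% in IVF (16.4% to 21.6%). As a percent of all listed reads the order of fibroblasts and oocytes was the reverse, as given in the closing section. The list was drawn from an embryo library, so fragments found only in fibroblasts are not counted. The 8 members that list another kind of RNA were then left out, a choice made after the data were seen. The medians of the share of tRNA-derived reads were then 1.54% in fibroblasts (0.680% to 2.71%), against 10.9% in oocytes (6.14% to 12.2%). In blastocysts they were then 2.32% in NT (1.85% to 2.66%) and 2.34% in IVF (1.67% to 2.64%), so the higher share of blastocysts over oocytes did not hold. Reads of all glycine and cysteine members, including those among the 8, were then set against the reads left. They came to 88.4% in oocytes, 26.1% in NT and 29.1% in IVF blastocysts, 23.0% in NT and 13.2% in IVF derived cells, and 7.18% in fibroblasts. These values are upper bounds on the share of glycine and cysteine in the reads left.

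Other members outside glycine and cysteine followed courses of their own. The lysine member trna6767-LysTTT-a had 20.1, 0 and 21.1 normalised reads in oocytes, 410, 228, 335 and 231 in NT blastocysts and 226, 272 and 321 in IVF blastocysts. The proline member trna96-ProCGG-a had 245, 732 and 409 in fibroblasts, against 10.1, 14.7 and 24.6 in oocytes. The threonine member trna1422-ThrAGT had 694, 638 and 342 in fibroblasts, against 50.3, 63.7 and 77.4 in oocytes, and 15.5 to 35.0 in NT and 17.8 to 21.4 in IVF blastocysts. In each of these 3 members the groups just compared did not overlap. The share of all tested sequences without overlap was not computed, so this cannot be read as particular to them. The valine member trna8133-ValAAC was found in all libraries and had its highest group mean in IVF 8-cell embryos, at 1398, 1192 and 373, against 38.4 at most in fibroblasts and 109 at most in oocytes. The 5 members of selenocysteine tRNA, which inserts selenocysteine at recoded stop codons, summed to a mean of 0.452 in fibroblasts, against 54.3 in oocytes, and to 1.04 in NT and 3.59 in IVF blastocysts.

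The first comparison asked how internal fragments of the donor cell type differ from those of the oocyte. Of the 209 members 196 had enough signal to be tested, which meant exceeding the table's lowest value by 1 log2 unit in 3 or more libraries, and 13 were not tested. A member that passed only through the group where it is high had to differ, so counts are set beside those over all 12039 tested sequences. Fragments absent from NT 2-cell replicate 4 are not listed, so fragments found only in fibroblasts could not be counted as higher. On the scale as deposited, lower in fibroblasts than in oocytes were 50 of 196 members (25.5%), against 40.4% of all tested sequences, and higher were 20 (10.2%), against 1.36% (limma, adjusted p under 0.05), with 41.8% of all tested sequences called in either direction. Cysteine had 1 higher and 27 lower of 50, glycine 1 higher and 15 lower of 52 (lower were 8 of 26 TCC, 3 of 17 CCC and 4 of 9 GCC members), and the other amino acids 18 higher and 8 lower of 94. The median change was -1.82 for cysteine, -0.78 for glycine and 0.25 for the others on the variance-stabilised log2 scale, against -0.97 for all tested sequences (on libraries centred on their medians the signs of the first 2 are reversed, as given next). With libraries centred on their medians, which also lifts sequences at 0, 161 members were higher and 11 lower and the medians of cysteine and glycine changed sign, to 2.39 and 3.43, where the median of all tested sequences was 3.24. With voom on recovered reads 45 were higher and 54 lower. For centring and voom the shares of all tested sequences called are not given here. In all 3 scalings the median of cysteine lay below that of all tested sequences and the median of the other amino acids above it.

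The member with the largest fall was trna6488-GlyTCC-a. It had no read in fibroblasts and a mean of 3637 ± 1001 in oocytes (n = 3 each, change of -10.42 ± 1.28 SE, limma, adjusted p = 3.7e-10). Counting 3 reads per fibroblast library as the floor, it was at least 3917-fold lower on the deposited size factors. This bound and those below cover read counting only, and another scaling would move them. By the same floor trna5380-CysGCA-a was at least 315-fold lower (adjusted p = 5.3e-09), trna1372-GlyCCC-a at least 299.8-fold lower (adjusted p = 3.6e-09) and trna5308-CysGCA-a at least 288-fold lower (adjusted p = 1.1e-09, all from limma). Higher in fibroblasts was trna8607-AsnGTT-a, at 97.9, 128 and 31.0 normalised reads against none in the oocyte libraries (change of 4.94 ± 0.82, limma, adjusted p = 5.9e-07). The proline members trna107-ProTGG-a (4.74 ± 0.92, adjusted p = 1.3e-05) and trna96-ProCGG-a (4.38 ± 0.98, adjusted p = 0.000126) and the aspartate member trna2281-AspGTC-b (3.70 ± 0.80, adjusted p = 8.0e-05) rose as well by limma.

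**Figure D3:**
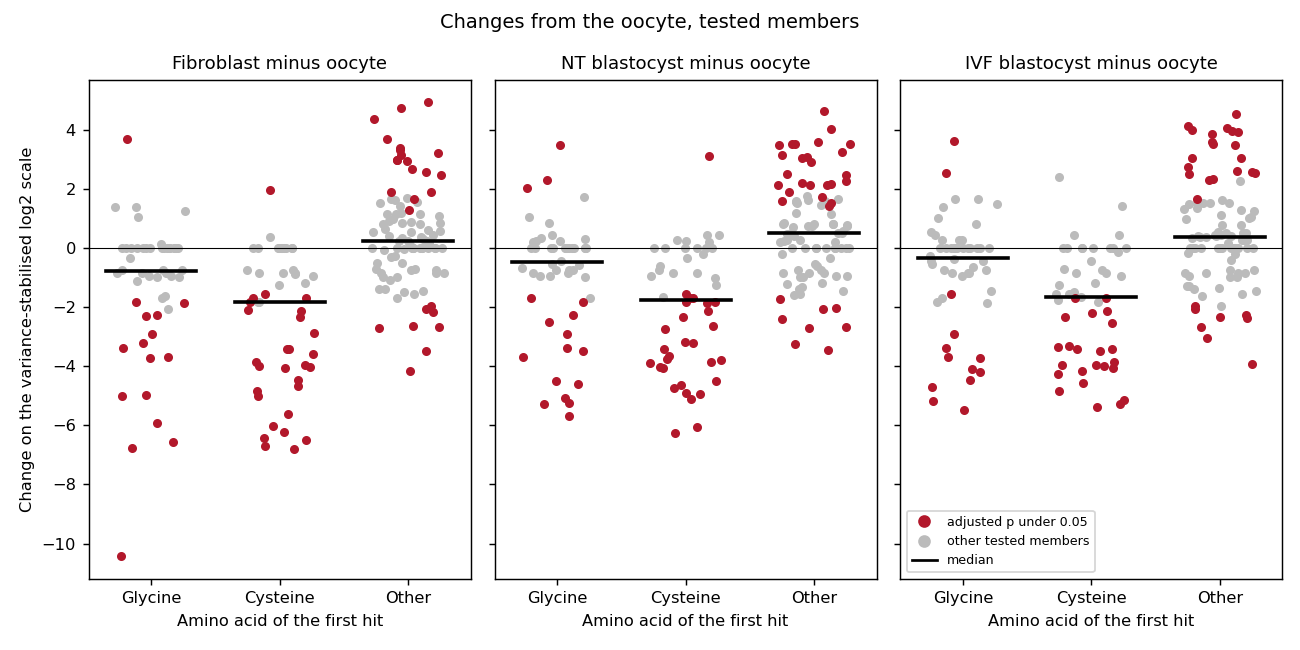
Change of each tested member on the variance-stabilised log2 scale (vertical axis) for fibroblasts minus oocytes, NT blastocysts minus oocytes and IVF blastocysts minus oocytes, by amino acid (52 glycine, 50 cysteine and 94 other members); red points had an adjusted p under 0.05 in limma and black bars are medians. The 3 panels share the oocyte libraries. Red points lie mostly below 0 for cysteine and glycine and mostly above 0 for the other amino acids; on libraries centred on their medians most red points of glycine and cysteine lie above 0 too.

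The second question was what became of the fragments of the oocyte by the blastocyst stage. These comparisons share the oocyte libraries with each other and with the comparison above, so their values are given side by side and no overlap is drawn. In NT blastocysts 50 of 196 members were lower (25.5%), against 38.5% of all tested sequences, and 29 were higher (14.8%), against 1.91%, with 40.4% of all tested sequences called in either direction. In IVF blastocysts 42 members were lower (21.4%), against 33.9%, and 22 were higher (11.2%), against 1.49%, with 35.4% called in either direction. Cysteine had 1 higher and 28 lower in NT and 0 higher and 23 lower in IVF blastocysts, of 50. Glycine had 3 higher and 14 lower in NT and 2 higher and 11 lower in IVF, of 52. On the deposited scale the lower ones were 9 of 26 TCC, 2 of 17 CCC and 3 of 9 GCC members in NT, and 7 TCC, 2 CCC and 2 GCC members in IVF, and the median change of the CCC members was 0 in both. The other amino acids had 25 higher and 8 lower in NT and 20 higher and 8 lower in IVF, of 94. The median change was -1.76 in NT and -1.66 in IVF for cysteine, -0.47 in NT and -0.33 in IVF for glycine, 0.52 in NT and 0.39 in IVF for the others, and -0.87 in NT and -0.86 in IVF over all tested sequences, with the signs of cysteine (by centring) and glycine (by centring and voom) reversed under the scalings given next. Centring on medians gave 141 higher and 14 lower members in NT and 130 higher and 14 lower in IVF. It turned the medians of cysteine to 1.26 in NT and 1.03 in IVF and of glycine to 2.54 in NT and 2.36 in IVF, where those of all tested sequences were 2.15 in NT and 1.84 in IVF. With voom the splits were 61 higher and 16 lower in NT and 48 higher and 13 lower in IVF, and the medians were -0.68 in NT and -0.44 in IVF for cysteine, 0.90 in NT and 0.91 in IVF for glycine, and 0.15 in both over all tested sequences. The median of cysteine lay below that of all tested sequences in all 3 scalings, and the median of the other amino acids lay above it. Shares of all tested sequences called under centring and voom are not given here.

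The cysteine member trna5380-CysGCA-a fell furthest in NT blastocysts, by 6.25 ± 0.87 (limma, adjusted p = 2.7e-08), to a mean of 1.89 normalised reads, against 292 in oocytes. In IVF blastocysts it fell by 5.38 ± 0.93 (limma, adjusted p = 3.9e-06), to 5.32. The member trna3273-GlyTCC-a fell by 5.67 ± 0.82 in NT (adjusted p = 6.5e-08) and by 5.49 ± 0.88 in IVF blastocysts (adjusted p = 1.1e-06, both limma). The abundant trna6488-GlyTCC-a fell by 5.26 ± 1.20 in NT (adjusted p = 0.000198) and by 4.47 ± 1.28 in IVF blastocysts (adjusted p = 0.00374, both limma), to means of 98.0 in NT and 165 in IVF, against 3637 in oocytes. By voom its NT change was -1.55 and was not called, nor were the IVF changes of trna5380-CysGCA-a (-3.39) and trna1372-GlyCCC-a (-3.04). The lysine member trna6767-LysTTT-a rose by 4.64 ± 0.95 in NT (adjusted p = 3.9e-05) and by 4.53 ± 1.01 in IVF blastocysts (adjusted p = 0.000208, both limma). The glutamate members trna5944-GluTTC-a, with no read in oocytes and a mean of 29.8 in NT and 40.7 in IVF blastocysts, and trna9197-GluCTC, with means of 92.4 in NT and 131 in IVF blastocysts against 6.87 in oocytes, rose in both by limma. The member trna2150-CysGCA-a fell by 3.21 ± 0.93 in NT (adjusted p = 0.00326) and had a change of -1.77 ± 0.99 in IVF blastocysts (adjusted p = 0.173, both limma).

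On the deposited scale few members were called between blastocysts and the cells grown from them. In NT derived cells 1 of 196 members was lower (0.510%), against 1.88% of all tested sequences, and none was higher, against 0.988%, with 2.87% of all tested sequences called in either direction. In IVF derived cells 6 were lower (3.06%), against 4.24%, and 2 were higher (1.02%), against 0.93%, with 5.17% called in either direction. These shares were below or close to those over all tested sequences. The member lower in both was trna6488-GlyTCC-a. It had no read in derived cells and means of 98.0 ± 47.2 in NT blastocysts (n = 4) and 165 ± 76.6 in IVF blastocysts (n = 3) (limma, adjusted p = 0.00394 in NT and 0.000465 in IVF). By the floor of 3 reads per library it was at least 118-fold lower in NT and at least 260-fold lower in IVF derived cells. The bounds in this paragraph hold on the deposited size factors and cover read counting only. The IVF calls also held the cysteine members trna2150-CysGCA-a, at least 35.9-fold lower, and trna5308-CysGCA-b, at least 25.6-fold lower, and trna1481-AlaAGC, with a mean of 1.47 against 39.7. The higher ones were trna1136-ThrTGT, with a mean of 15.9 against none in IVF blastocysts, and trna1493-GlnTTG, with 15.2 against none. These counts depended on the fit. IVF morula replicates 1 and 3 are in none of the groups compared here and enter through the shared spread and the choice of tested sequences. Without them 6 NT and 19 IVF members were called, and voom called 142 (1 higher and 141 lower) in NT and 150 (8 higher and 142 lower) in IVF. Median centring called 1 higher and 1 lower in NT and 21 higher and 1 lower in IVF, where the medians of all tested sequences moved to 1.20 in NT and 1.52 in IVF. The shares of all tested sequences called in these refits are not given here, so these counts cannot be read as particular to the members. For a difference of this step between NT and IVF, limma and voom called 0 members, with 1 member (0.51%) at an unadjusted p under 0.05 in limma, against 37 of all tested sequences (0.307%), and 0% of all tested sequences called.

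The last question was whether cloned embryos differ from fertilised ones. In 2-cell embryos 6 of 196 members were higher in NT (3.06%), against 2.16% of all tested sequences, and none was lower, against 0.125%, with 2.28% called in either direction. All 6 were rare, at means of 5.23 to 22.1 normalised reads in NT and 0 to 2.44 in IVF. The member trna5001-GlyTCC-b stood at 11.1, 26.7, 10.3 and 18.0 normalised reads in NT, and at 9.76 in 1 of the 4 IVF libraries and 0 in the others, and was the only 1 of the 6 whose groups did not overlap (change of 2.36 ± 0.54, limma, adjusted p = 0.00792). For all tested sequences the share without overlap was not computed. The member trna3538-GlnTTG stood at 53.5, 5.16 and 29.9 in 3 of 4 NT libraries and at 0 in all IVF libraries (2.54 ± 0.67, limma, adjusted p = 0.0234). The others, with changes of 1.32 to 1.73, were trna2113-CysGCA-d, trna6828-GlyTCC, trna4073-GlyCCC-c and trna2027-CysGCA-b, the last 2 named here to complete the count. The median change over members was 0.34, equal to that over all tested sequences, and the list itself was drawn from an NT 2-cell library. Median centring, voom and a fit of only these 2 groups each called none of them, and without NT 2-cell replicate 2 the count was 3.

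At the later stages limma called no member. In 8-cell embryos 19 members (9.69%) had an unadjusted p under 0.05, against 972 of all tested sequences (8.07%), of which 0.00831% were called higher and 0% lower after adjustment. The cysteine member trna4850-CysGCA had 12.2, 21.9, 0 and 6.67 in NT and 282, 237 and 9.51 in IVF 8-cell embryos (change of -3.22 ± 0.96, limma, adjusted p = 0.347), and the groups overlapped. The valine member trna8133-ValAAC had 210, 259, 124 and 169 in NT and 1398, 1192 and 373 in IVF 8-cell embryos, without overlap, and did not pass either (change of -2.18 ± 0.92, limma, adjusted p = 0.564). In morulae 19 members (9.69%) had an unadjusted p under 0.05, against 1223 of all tested sequences (10.2%), of which 0% were called in either direction after adjustment. The largest change there was that of trna6488-GlyTCC-a (3.58 ± 1.20, limma, adjusted p = 0.258), whose means were 975 in NT and 992 in IVF and which had no read in IVF replicates 1 and 3. Without these 2 libraries together 1 member was called. With IVF morula replicate 2 left out 5 members were called, and with replicate 4 left out 10 were. Both of the latter refits kept IVF morula replicates 1 and 3. Shares of all tested sequences called in these refits are not given here, so these counts cannot be read as particular to the members. In blastocysts 2 members (1.02%) and in derived cells 1 member (0.51%) had an unadjusted p under 0.05, against 74 (0.615%) and 33 (0.274%) of all tested sequences, with 0.00831% of all tested sequences called lower and 0% higher in blastocysts and 0% in either direction in derived cells. A fit of only the groups compared called 2 members in 8-cell embryos, and voom called none at any of the 4 later stages. These numbers of libraries leave smaller differences undetected.

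Set against the piRNA reads of the same library, the cysteine members varied less than in level, with or without IVF morula replicates 1 and 3. piRNAs guide the silencing of transposons in germ cells and are abundant in oocytes. Over the 30 oocyte and embryo libraries without IVF morula replicates 1 and 3, cysteine members had 0.711 to 2.56 reads per 1000 piRNA reads (median 1.28), a 3.60-fold range, while their normalised level varied 52.8-fold and the piRNA share lay between 13.8% and 91.7% of listed reads, a 6.64-fold range. Levels are divided by the size factor and the ratio is not, so these ranges are on different scales. How much of the narrower range comes from that was not tested. Glycine TCC and CCC members had 2.13 to 10.4 per 1000 piRNA reads (median 3.65), a 4.88-fold range with 37.3-fold in level. With IVF morula replicates 1 and 3 counted as well the ranges were 36.3-fold in ratio and 368-fold in level for cysteine, but 119-fold in ratio and 88.7-fold in level for glycine TCC and CCC, so for glycine the narrower range of the ratio rests on leaving these 2 out. NT blastocysts had 6.40 ± 2.78 (n = 4) and IVF blastocysts 4.88 ± 1.25 (n = 3) of these, against 2.44 ± 0.122 in oocytes (n = 3). IVF morula replicates 1 and 3 had 25.8 and 15.2 cysteine reads and 254 and 10.01 glycine TCC and CCC reads per 1000 piRNA reads. In fibroblasts and derived cells the ratios were 6.38 to 685 for cysteine and 22.2 to 663 for glycine, where piRNA reads were 0.0653% to 0.895% of listed reads and the reads came from the few members described above. All points of a library share its depth and its piRNA total, and what ties these reads together was not tested.

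**Figure D4:**
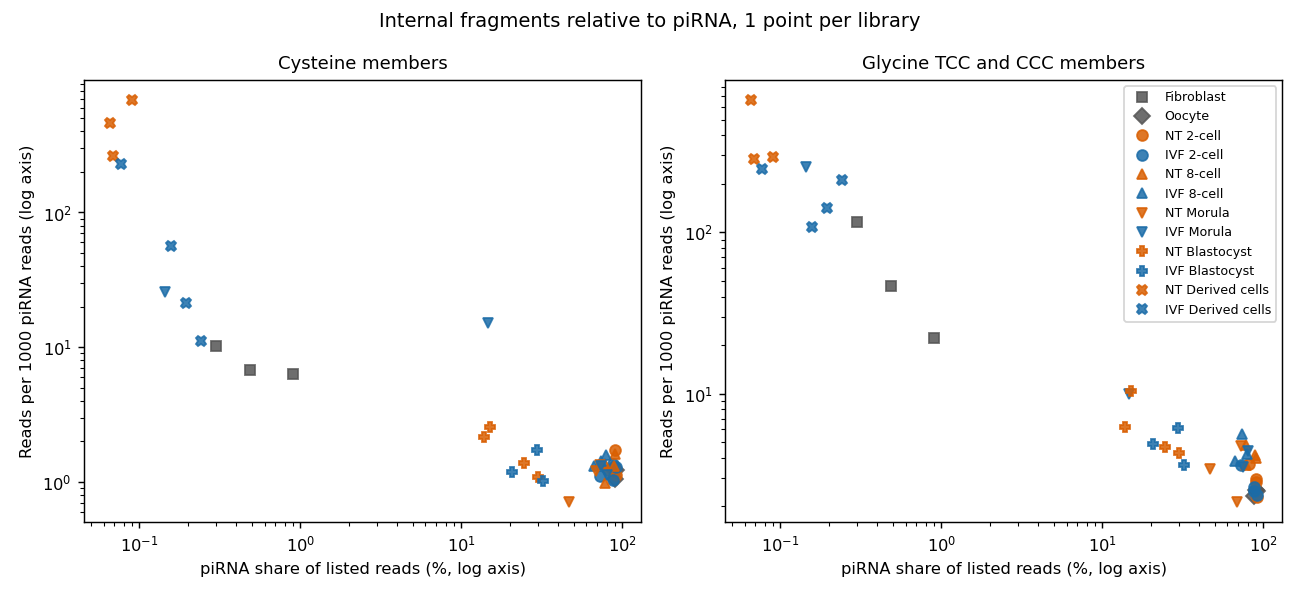
Reads of cysteine members (left) and of glycine TCC and CCC members (right) per 1000 piRNA reads of the same library (vertical, log axis) against the piRNA share of listed reads in percent (horizontal, log axis), with 1 point per library. For cysteine, 30 oocyte and embryo libraries lie between 0.711 and 2.56, while IVF morula replicates 1 and 3, fibroblasts and derived cells lie above them.

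The loci named by the members were compared with those listed for fragments from the ends of the mature tRNA. Of the 34 loci named first by cysteine members 2, and of the 39 named by glycine members 8, were also listed for a fragment from the 5′ or 3′ end, against 49 of 78 loci of the other amino acids. Because at most 3 annotations are printed per sequence, these counts are lower bounds, and trailer and leader fragments could not be linked to loci. Among the other fragment types, those that come from the precursor outside the mature tRNA were also mostly missing from fibroblasts and derived cells: 94.2% of the trailer fragments and 92.6% of the leader fragments were found in none of the 10 libraries, against 1.56% of the long 5′ and 0% of the long 3′ products cut at the anticodon and 0.962% of the fragments ending in CCA. Whether a cysteine or glycine locus is a working tRNA gene or a tRNA-like copy was not tested, since no sequence or genome was used here.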

How the data were processed

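Small RNA was read in 42 libraries of 12 groups, taken from the labels. The authors deposited variance-stabilised log2 values for all libraries in 1 table; per the submitters' processing notes Trim Galore, DESeq2 and the builds bosTau8 and UMD3.1 were used, and which aligner, counter and versions were used is not given in the sources used here. Of 188126 values above the lowest value, 100% mapped to whole reads within 0.01 reads, taking the smallest step as 2 reads; the absolute scale rests on this, and single reads do not appear. Normalised reads are these reads over the size factor recovered from the table.

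Each of the 11 comparisons was fitted in limma 3.58.1 (R 4.3.3) on the deposited values over all 12 groups with no other term and an intensity trend, for sequences that exceeded the table's lowest value by 1 log2 unit in 3 or more libraries, with Benjamini-Hochberg adjustment over 12039 sequences and a threshold of 0.05. The fit had 30 residual degrees of freedom and was tested on simulated data. Sums and shares came from Python 3.11.15 with pandas 2.3.3 and numpy 2.4.6 and are descriptions without a test. Listed reads ranged from 25119 to 3081186 per library, so low members are best measured in the deepest libraries. No library was a copy of another.

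Alternatives were a stricter filter (2 log2 units in 6 libraries), median centring, log2 of normalised reads plus 1, voom on the recovered reads, a fit of only the groups compared, a replicate block, fits without IVF morula replicates 1 and 3, and leaving out each library in turn. Named members are, for each comparison, up to 4 called in each direction with the largest change, the 10 with the highest mean over groups, the top 2 of each glycine and cysteine anticodon, and those found in all 42 libraries; exceptions are marked. The members and lists were chosen with earlier results of these data known.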

Additional observations from a re-analysis of the deposited data

Results flagged for a closer look

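In groups of 4 libraries, 83 tests covered the 10 most abundant members and the shares of sets of members. In 7 of them a library lay far from the other 3, by a rule that chance meets in about 1 of 20 groups. All 7 were tests of single members and none of a share. In IVF 2-cell replicate 2, trna9190-GlyGCC stood at 1723 normalised reads, against 43.9 to 48.3 in the other 3 libraries, and trna95-LysCTT-a at 1561, against 10.4 to 84.8. In IVF 2-cell replicate 1, trna809-GluTTC-b stood at 287.1, against 52.7 to 60.5. In IVF morula replicate 3, the library with the fewest reads, trna809-GluTTC-b stood at 3899, against 96.1 to 126, and trna2281-AspGTC-a at 368.3, against 117 to 146. In IVF derived cells replicate 2, trna1422-ThrAGT stood at 640.8, against 37.2 to 110 in the other 3 libraries, while fibroblasts held 342 to 694 of it. In NT 2-cell replicate 4, the library from which the list was drawn, trna6767-LysTTT-a stood at 199.9, against 44.3 to 68.8.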

How the results depend on the processing

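Leaving out each library in turn moved the number of members called from 59 to 66 for fibroblasts minus oocytes, 59 to 72 for NT and 52 to 63 for IVF blastocysts minus oocytes, 1 to 1 for NT and 2 to 7 for IVF derived cells minus blastocysts, 3 to 11 in 2-cell and 0 to 10 in morula NT minus IVF, and 0 to 0 in the other NT minus IVF comparisons and for the difference of steps. The IVF derived cell count of 8 fell to 4, 2 or 3 without IVF blastocyst replicate 2, 3 or 4, and to 4 or 3 without IVF derived cells replicate 2 or 3. Without NT 2-cell replicate 3 the 2-cell count was higher, at 11, and without replicate 2 it was 3. Median centring gave 172 calls for fibroblasts, 155 for NT and 144 for IVF blastocysts against oocytes, 2 for NT and 22 for IVF derived cells, 0 in 2-cell embryos and 1 in morulae. Voom gave 142 for NT and 150 for IVF derived cells and 0 in 2-cell embryos. A fit of only the groups compared gave 30 for NT and 43 for IVF derived cells, 0 in 2-cell and 2 in 8-cell embryos. The stricter filter gave 2 in 2-cell embryos, and log2 of normalised reads plus 1 gave 2 for NT derived cells. Without IVF morula replicates 1 and 3 the counts were 6 for NT and 19 for IVF derived cells and 1 in morulae. All counts of calls in this paragraph are of members alone, without the shares of all tested sequences called under the same setting. The deviations of same-numbered libraries had correlations of -0.087 to 0.466. The extremes were both between NT and IVF derived cells, at replicates 3 and 4, and replicate 1 had 0.339 there. In morulae the NT and IVF pairs had 0.135, 0.179 and 0.0886. Whether same-numbered libraries share more than a number was not settled by this. With a replicate block the counts were 69, 76 and 59 for fibroblasts, NT and IVF blastocysts against oocytes, 1 for NT and 7 for IVF derived cells, 6 in 2-cell embryos and 0 elsewhere. Of the remaining values, 559 were counted as the same, which meant the same direction and call for named members. For shares it meant a change smaller than the SD of the group. Another 43 values of named members kept the direction and lost the call and none reversed, while 22 shares moved by the SD or more. As a percent of all listed reads the members were 1.43% in fibroblasts, 0.500% in oocytes and 8.29% in NT and 8.71% in IVF blastocysts. The order of fibroblasts and oocytes was thus the reverse of that as a percent of tRNA-derived reads. The causes were not tested, except that centring by its construction lifts sequences without reads. Depth limits what rare members can show: the 3 reads that a count of 0 allows weigh most in IVF morula replicate 3.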
